A study of Mus musculus with 6 samples.

Results

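The regions described here are the TH2B islands in the last 4 Mb of the 19 mouse autosomes, next to the telomere that lies far from the centromere. An island is a broad stretch of DNA in which a chromatin immunoprecipitation (ChIP) library holds more reads than a control library. Islands were taken by position alone: their end had to lie within 4000000 bp of the end of an autosome in the mouse build mm9. This gave 302 islands in spermatocytes, 423 in round spermatids and 558 in the wild-type list, which was 1283 of the 46507 islands in the 3 lists.

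TH2B is the testis form of histone H2B, which takes the place of the somatic histone as germ cells enter meiosis and is still present in the chromatin of round spermatids. Mouse chromosomes carry the centromere at one tip, so each has a single distal arm that ends in a telomere far from centromeric repeats. In early meiosis the telomeres attach to the nuclear envelope, and chromosome pairing in male meiosis is often seen to start near the ends. The DNA next to telomeres also holds repeats and duplicated stretches, on which short reads are hard to place.

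The 3 ChIP libraries were each compared with a control library, and each group was 1 library, so no value has a replicate error. Spermatocytes, which are meiotic, and round spermatids, which are post-meiotic, came from adult Th2b+/tag mice, in which 1 copy of the gene makes TH2B with His, Flag and Ha tags at its C-terminus. Both fractions were separated on a BSA gradient, and tagged TH2B was precipitated with an anti-HA antibody (Abcam, ab9110). Total male germ cells came from adult wild type mice and were precipitated with an antibody to TH2B itself. Cells, genotype and antibody therefore all changed together between the tagged lists and the wild-type list, and their parts cannot be told apart. Island lists hold no expression values, so the cell types were not checked by marker genes. The treatment text names a pooled fraction of both cell types, read here as fractions pooled within each type, and the wild-type input carries the TH2B antibody in its labels although its title calls it an input.

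Terminal islands held 33688 ChIP and 26592 control reads in spermatocytes, 52903 and 38324 in round spermatids, and 73566 and 51790 in the wild-type list. Reads outside islands and library totals were not used here, so the depth of a whole library is unknown. The intervals below are 95% intervals from counts of islands or reads. They cover counting error only, and islands that lie in clusters vary more than such intervals allow. A stretch without islands is one in which none passed the caller's threshold, not one shown to lack TH2B.

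The last 4 Mb of the autosomes held fewer tagged islands and more wild-type islands than their length would give. They make up 3.07% of autosomal DNA. They held 2.02% of the autosomal islands of spermatocytes, 2.57% of those of round spermatids and 4.17% of those of wild-type germ cells. The terminal stretches were then set against the stretch 10 to 20 Mb from the same ends, which keeps each chromosome as its own comparison.

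In spermatocytes the density was 3.97 islands per Mb next to the ends (interval 3.54 to 4.45) and 4.98 per Mb inside (4.67 to 5.31). The ratio was 0.797 (0.698 to 0.908). In round spermatids the densities were 5.57 (5.05 to 6.12) and 5.64 (5.30 to 5.98) islands per Mb, a ratio of 0.987 (0.880 to 1.11). In the wild-type list they were 7.34 (6.75 to 7.98) and 6.08 (5.73 to 6.44) islands per Mb, a ratio of 1.21 (1.09 to 1.34). Pooled over autosomes, the terminal stretches were thus poorer in islands than the inner ones for tagged TH2B of meiotic cells. They were close to even for tagged TH2B of post-meiotic cells and richer for native TH2B. Taken autosome by autosome, the ratio had a median of 0.658 in spermatocytes, 0.776 in round spermatids and 1 in the wild-type list. The pooled wild-type excess was therefore not general to the ends. Low density in spermatocytes was not particular to the last 4 Mb, since the ratio for the last 8 Mb was 0.746 (0.671 to 0.829). By covered DNA, islands took up 1.40% of the terminal and 1.84% of the inner stretches in spermatocytes, 1.90% and 2.01% in round spermatids, and 2.03% and 1.66% in the wild-type list. Chromosome 16 alone carried part of the wild-type excess, since without it the ratio was 1.11 (0.994 to 1.23), an interval that includes 1. The wild-type interval also included 1 among islands with an FDR of at most 0.0001, at 1.16 (0.985 to 1.36).

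Set against each other, the terminal ratio of round spermatids was 1.24 times that of spermatocytes (1.04 to 1.48), and that of wild-type germ cells was 1.51 times (1.28 to 1.79). The wild-type ratio was 1.22 times that of round spermatids (1.05 to 1.43). The difference between wild-type germ cells and spermatocytes kept an interval above 1 when any 1 autosome was left out, with a lowest value of 1.29 (1.08 to 1.53). The difference between the tagged lists included 1 without chromosome 8 or without chromosome 16, where it was 1.18 (0.983 to 1.41). The difference between wild-type germ cells and round spermatids included 1 without any 1 of chromosomes 6, 11, 14, 16 and 19, and was 1.09 (0.932 to 1.28) without chromosome 16. With the last 2 Mb in place of 4 Mb, the wild-type ratio was 1.02 times that of round spermatids (0.849 to 1.23), so no difference was detectable there. It was 1.37 times that of spermatocytes (1.12 to 1.69), and 1.14 times (0.919 to 1.41) without chromosome 16.

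Within the last 4 Mb, the islands were crowded into the outermost 2 Mb. Round spermatids had 286 islands in the outer 2 Mb and 137 in the next 2 Mb, a ratio of 2.09 (1.70 to 2.58). Spermatocytes had 188 and 114, a ratio of 1.65 (1.30 to 2.10), and wild-type germ cells had 315 and 243, a ratio of 1.30 (1.09 to 1.54). More islands lay in the outer than in the inner part on 13 autosomes in spermatocytes, on 14 in round spermatids and on 11 in the wild-type list, and fewer on 4, 4 and 7. With any 1 autosome left out, the ratio ran from 1.52 to 2.05 in spermatocytes and from 1.95 to 2.35 in round spermatids, with every interval above 1. In the wild-type list it ran from 1.19 to 1.35, and the interval included 1 without chromosome 16 (1.19, 0.996 to 1.43).

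The choice of 4 Mb therefore decided how round spermatids compared with the inner stretch. Their outer 2 Mb held 7.53 islands per Mb, 1.34 times the density 10 to 20 Mb inside (1.17 to 1.52), while the part from 2 to 4 Mb held 3.61 per Mb, 0.640 times (0.531 to 0.765). Spermatocytes had 4.95 islands per Mb in the outer 2 Mb, 0.993 times the inner density (0.844 to 1.16), and 3.0 per Mb from 2 to 4 Mb, 0.602 times (0.491 to 0.732). Wild-type germ cells had 8.29 and 6.39 per Mb, which was 1.36 times (1.20 to 1.55) and 1.05 times (0.912 to 1.21). The outermost 2 Mb thus had a density near the inner one in spermatocytes and above it in the other lists. For the last 1 Mb alone, round spermatids had 1.19 times the inner density (0.979 to 1.43), an interval that includes 1. Both tagged lists were sparse from 2 to 4 Mb.

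**Figure D1:**
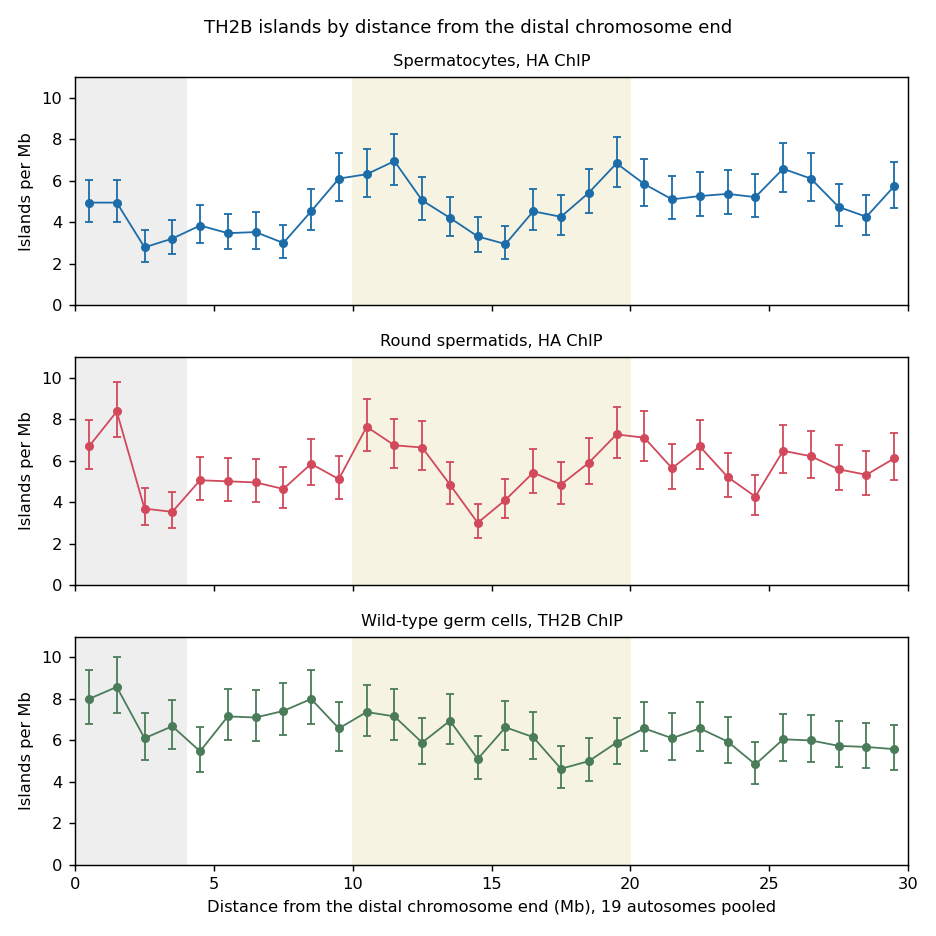
Islands per Mb (vertical axis) in successive 1 Mb steps from the distal chromosome end (horizontal axis, in Mb), pooled over 19 autosomes, for the 3 lists; bars are exact 95% counting intervals, the grey band is the last 4 Mb and the pale band the stretch 10 to 20 Mb inside. Both tagged lists drop after the first 2 steps, round spermatids from 8.37 to 3.68 islands per Mb, while the wild-type list drops less, from 8.58 to 6.11.

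Step by step from the end, round spermatids had 6.68, 8.37, 3.68 and 3.53 islands per Mb in the first 4 steps of 1 Mb. The second step was the densest of the 30 steps nearest the end, and the steps that followed were the 28th and the 29th in order. Spermatocytes had 4.95, 4.95, 2.79 and 3.21 islands per Mb, and the third step was the sparsest of the 30. Wild-type germ cells had 8.0, 8.58, 6.11 and 6.68, the second step being the densest of the 30 and the first equal to the step from 8 to 9 Mb in second place. The steps from 4 to 8 Mb ran from 3.0 to 3.84 islands per Mb in spermatocytes, so low density there went on beyond 4 Mb. They ran from 4.63 to 5.05 in round spermatids and from 5.47 to 7.42 in the wild-type list. Steps of 1 Mb also differed inside the chromosomes, where those 10 to 20 Mb from the end ran from 2.95 to 6.95 islands per Mb in spermatocytes, 3.0 to 7.63 in round spermatids and 4.63 to 7.37 in the wild-type list. The first 2 steps of spermatocytes lay within that range, the second of round spermatids lay above it, and so did the first 2 of the wild-type list.

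Single chromosome ends differed far more than the pooled values. Terminal density over the 19 autosomes had a mean of 3.97 ± 3.33 islands per Mb (SD over autosomes) in spermatocytes, 5.57 ± 4.27 in round spermatids and 7.34 ± 4.14 in the wild-type list. Counting error alone at those means would give an SD of 0.997, 1.18 and 1.35. The stretch 10 to 20 Mb inside had SDs of 2.96, 2.22 and 2.41 islands per Mb. It is longer than the 4 Mb ends, and counts over a longer stretch have less counting error per Mb. The SDs of the ends and of the inner stretch are therefore not on equal terms. Autosomes share their library, so this spread describes the genome and not the error of the experiment.

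Chromosomes 18, 13 and 3 had the densest tagged ends in spermatocytes, with 10.8, 9 and 8.50 islands per Mb, and chromosome 12 equalled chromosome 3. Chromosomes 18, 12 and 17 led in round spermatids, with 15.3, 11.5 and 9.75. For native TH2B the densest ends were those of chromosomes 16, 19 and 7, with 14.0, 13.5 and 13. The 3 densest ends of each list held 37.4%, 34.5% and 29.0% of its terminal islands.

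At the other extreme, the end of chromosome 4 had no spermatocyte island in its last 4 Mb, that of chromosome 5 had 0.5 per Mb, and those of chromosomes 7, 11 and 15 had 0.750 per Mb. Round spermatids had 0.5 per Mb at the ends of chromosomes 7 and 11 and 0.750 at that of chromosome 4. Wild-type germ cells had 1.25 per Mb at the ends of chromosomes 13 and 18 and 1.75 at that of chromosome 10. The ends poorest in native TH2B islands thus included the 2 ends, of chromosomes 18 and 13, that were richest in spermatocyte islands.

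**Figure D2:**
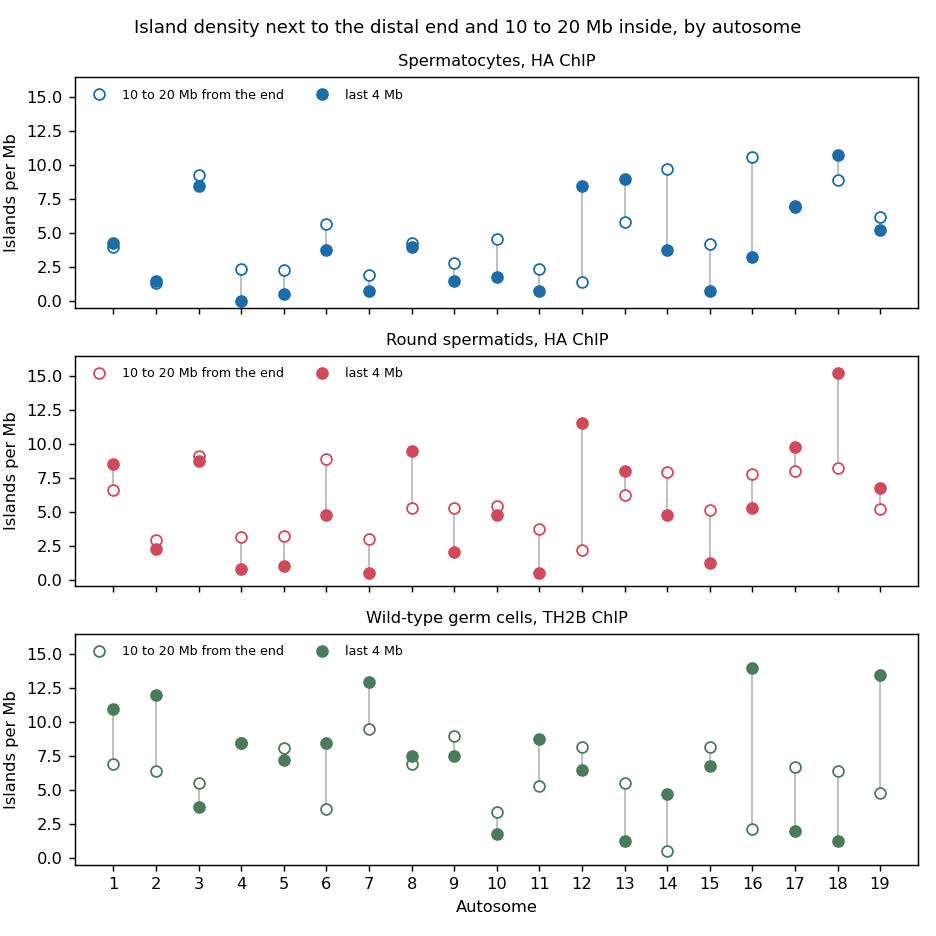
Islands per Mb (vertical axis) on each autosome (horizontal axis) in the last 4 Mb (filled circles) and 10 to 20 Mb from the same end (open circles) for the 3 lists, with a grey line joining the 2 values. Chromosomes 12 and 18 have terminal tagged densities well above the inner ones in round spermatids (11.5 over 2.20 and 15.3 over 8.20), whereas chromosomes 16 and 19 do so in the wild-type list (14.0 over 2.10 and 13.5 over 4.80).

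Compared with its own inner stretch, the end of chromosome 12 stood highest in the tagged lists. It held 34 spermatocyte islands in 4 Mb, beside 14 in the 10 Mb inside, a ratio of densities of 6.07 (3.17 to 12.2). Round spermatids had 46 and 22 there, a ratio of 5.23 (3.08 to 9.12), and wild-type germ cells 26 and 82, a ratio of 0.793 (0.489 to 1.25). In round spermatids the intervals of chromosomes 8 and 18 also lay above 1, at 1.79 (1.15 to 2.77) and 1.86 (1.31 to 2.62).

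In wild-type germ cells the ratio was highest on chromosome 14, at 9.50 (3.43 to 32.6), where only 5 islands lay in the inner stretch. Chromosome 16 followed with 56 islands next to the end and 21 inside, a ratio of 6.67 (3.97 to 11.6), then chromosome 19 with 54 and 48, a ratio of 2.81 (1.87 to 4.24). On chromosome 16 the tagged lists went the other way. Spermatocytes had 13 terminal and 106 inner islands, a ratio of 0.307 (0.158 to 0.547), and round spermatids 21 and 78, a ratio of 0.673 (0.395 to 1.10). On chromosome 18 it was the wild-type list that was low, with 5 and 64 islands and a ratio of 0.195 (0.0613 to 0.480).

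Counted over autosomes, the terminal density was above the inner one on 6 of 19 in spermatocytes, on 7 in round spermatids and on 9 in the wild-type list, where it was below on another 9 and equal on chromosome 4. The interval of the ratio lay above 1 on 1, 3 and 7 autosomes and below 1 on 6, 7 and 3. Chromosome 1 was the only autosome above 1 in all 3 lists, with ratios of 1.06, 1.29 and 1.59, and of these only the wild-type interval (1.07 to 2.36) lay above 1. Chromosomes 3, 5, 9, 10 and 15 were below 1 in all 3 lists. On 9 autosomes, which were 6, 7, 11, 12, 13, 14, 16, 17 and 18, both tagged lists lay on one side of 1 and the wild-type list on the other.

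The 2 tagged lists ranked the chromosome ends alike, and the wild-type list ranked them differently. Over the 19 ends, the densities of spermatocytes and round spermatids had a Pearson r of 0.919 and a Spearman rho of 0.924. Against wild-type germ cells, spermatocytes had an r of -0.517 and a rho of -0.468, and round spermatids an r of -0.455 and a rho of -0.443. The same was seen 10 to 20 Mb inside, with r of 0.876, -0.701 and -0.587 for the 3 pairs, so this contrast between tagged and native lists was not shown to be particular to the ends. All ends of a list share its library, and base composition and gene content of the ends were not measured here, so these are descriptions without a test.

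More islands per Mb in both tagged lists than in the wild-type list were seen on 5 ends, those of chromosomes 3, 12, 13, 17 and 18. On 11 autosomes both tagged lists lay below the wild-type list. Chromosome 18 showed the widest gap in favour of tagged TH2B, with 43 spermatocyte, 61 round spermatid and 5 wild-type islands in the last 4 Mb. Chromosome 7 showed the reverse, with 3, 2 and 52. These are comparisons of levels between lists whose terminal totals differed (302, 423 and 558 islands). They were not adjusted for those totals or for library depth, which is unknown.

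**Figure D3:**
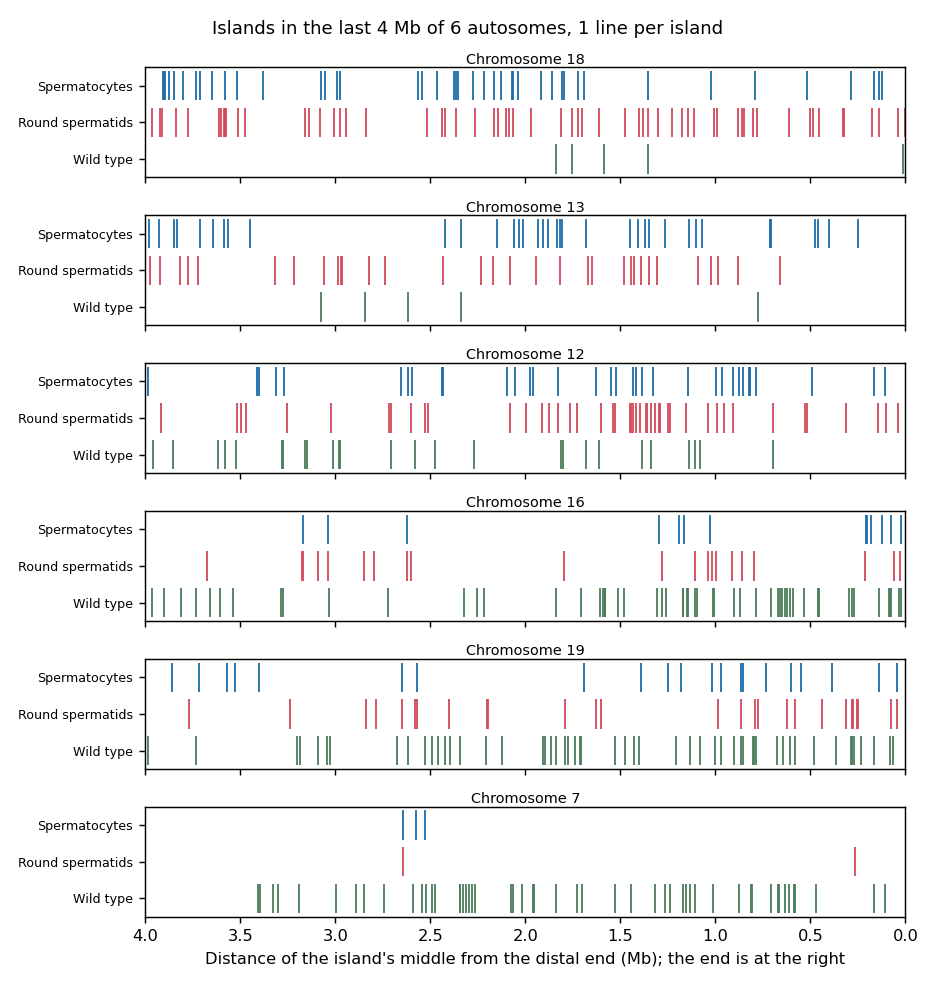
Positions of all islands in the last 4 Mb of 6 autosomes, chosen after their values were seen, with 1 vertical line per island and 1 row per list; the horizontal axis is the distance from the distal end in Mb. Chromosome 18 has 43 spermatocyte and 61 round spermatid islands beside 5 wild-type islands, and chromosome 7 has 3 and 2 beside 52.

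At a finer scale, the last 4 Mb make 76 windows of 1 Mb. No spermatocyte island lay in 20 of them, no round spermatid island in 16 and no wild-type island in 5. The 11 windows without any tagged island held 99 wild-type islands, and the 5 windows without a wild-type island held 103 tagged islands. No window lacked islands of all 3 lists. Counts of such windows elsewhere on the autosomes are not given here, so these counts are not shown to be particular to the ends. The variance of the counts over windows was 4.43, 5.85 and 3.96 times their mean in the 3 lists, where islands scattered at random would give a variance near the mean. The fullest windows held 15 spermatocyte islands, 24 round spermatid islands and 23 wild-type islands. Named after their values were seen, the fullest was the second Mb from the end of chromosome 12 for round spermatids, and for wild-type germ cells the last Mb of chromosome 16.

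Round spermatids had more terminal islands than spermatocytes on 16 of 19 autosomes and fewer on chromosomes 7, 11 and 13. Pooled, there were 1.40 times as many (1.21 to 1.63) in the last 4 Mb and 1.52 times as many (1.26 to 1.84) in the outer 2 Mb. From 2 to 4 Mb there were 1.20 times as many (0.930 to 1.55). In the stretch 10 to 20 Mb inside, round spermatids had 1.13 times as many (1.04 to 1.24), with more on 14 autosomes. Over whole autosomes there were 1.10 times as many, also with more on 16 and fewer on 3. The count of 16 is therefore not particular to the ends. The post-meiotic surplus in the outer 2 Mb was 1.35 times that inside (1.09 to 1.66), and it stayed at 1.27 (1.02 to 1.58) or more when any 1 autosome was left out. These are 2 libraries of unknown total depth, so the difference is between libraries and not shown for the cell types.

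The surplus was plainest on chromosomes 1, 8, 10 and 18, a choice made after the values were seen. In the outer 2 Mb of chromosome 1 there were 16 spermatocyte and 29 round spermatid islands. The counts were 15 and 31 on chromosome 8, 6 and 17 on chromosome 10, and 14 and 32 on chromosome 18. On chromosome 13 the order was the reverse, with 21 and 15.

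Where islands were called, their median enrichment next to the ends was close to that inside. The authors' deposited fold over control had a terminal median of 1.50 (interval 1.47 to 1.53) in spermatocytes, 1.47 (1.44 to 1.50) in round spermatids and 1.42 (1.41 to 1.45) in the wild-type list. Inside, the medians were 1.52 (1.50 to 1.54), 1.48 (1.46 to 1.50) and 1.44 (1.43 to 1.46). The terminal median minus the inner one was -0.017 (-0.055 to 0.017), -0.0092 (-0.048 to 0.025) and -0.020 (-0.044 to 0.0076), so all 3 intervals included 0. Against the stretch 20 to 30 Mb inside, the wild-type difference was -0.038 (-0.062 to -0.0081), an interval below 0. Among chromosomes with at least 5 terminal islands, the terminal median was higher than the inner one on 6 and lower on 8 in spermatocytes, 8 and 7 in round spermatids, and 7 and 12 in the wild-type list.

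In spermatocytes 24 of 302 terminal islands had a fold of 2 or more (7.95%, interval 5.16 to 11.6), where 9.1% of all autosomal islands did. In round spermatids 26 of 423 did (6.15%, 4.05 to 8.88), beside 6.6% of all autosomal islands, and 40 of 558 did in the wild-type list (7.17%, 5.17 to 9.63), beside 6.25%. Each share had an interval that held the share over all autosomes. These islands were shorter than the other terminal islands, with median lengths of 2600, 1800 and 1800 bp beside 3400, 3200 and 2600 bp. They also had fewer control reads, with medians of 17.2, 20 and 22.7 reads per kb beside 23.4, 26.2 and 34.4 reads per kb, and control reads are the denominator of the fold.

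**Figure D4:**
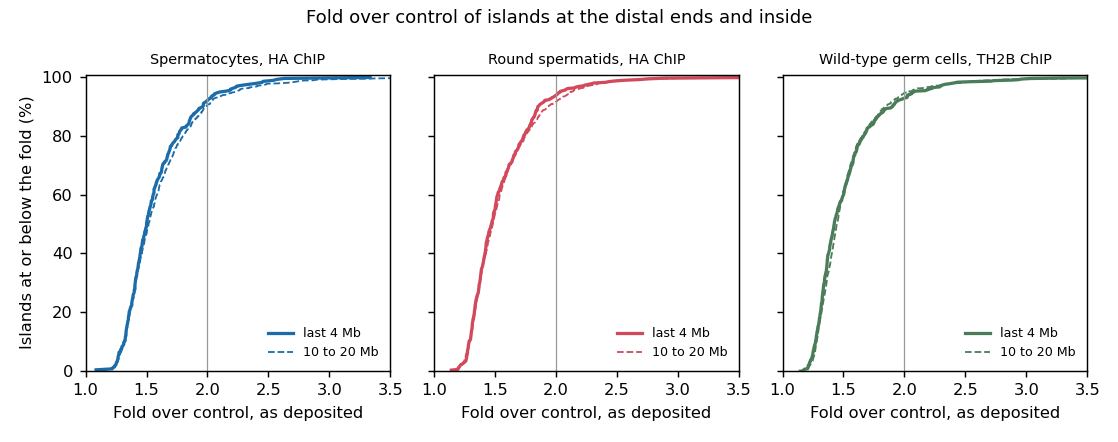
Share of islands (vertical axis, in %) at or below each fold over control as deposited by the authors (horizontal axis, drawn from 1 to 3.5), for the last 4 Mb (solid line) and 10 to 20 Mb from the end (dashed line) in the 3 lists; the grey vertical line marks a fold of 2. The 2 lines of each panel run close together, with terminal medians of 1.50, 1.47 and 1.42 beside inner medians of 1.52, 1.48 and 1.44, and a few islands have folds beyond the drawn range.

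Input density, the control reads per kb of island, differed little between terminal and inner islands. Its median was 22.9 reads per kb next to the ends and 22.5 inside in spermatocytes, a ratio of 1.02 (0.988 to 1.05). It was 25.7 and 24.8 in round spermatids, a ratio of 1.04 (1.01 to 1.07), and 33.8 and 33.0 in the wild-type list, a ratio of 1.03 (1.002 to 1.05). At an FDR of at most 0.0001 the intervals of round spermatids (1.01, 0.973 to 1.04) and of the wild-type list (1.01, 0.976 to 1.05) included 1. The round spermatid interval also included 1 against the stretch 20 to 30 Mb inside, without the islands richest in control reads, and without any 1 of chromosomes 2, 3, 8, 16 and 18. The wild-type interval did so for the last 2 Mb and without any 1 of chromosomes 1, 2, 7, 9, 10, 12, 16, 17 and 19. In round spermatids the outer 2 Mb had 26.4 reads per kb (25.4 to 27.5) and the next 2 Mb 24.3 (23.1 to 25.6). Among chromosomes with at least 5 terminal islands, the terminal median was higher on 11 and lower on 3 in spermatocytes, likewise 11 and 3 in round spermatids, and 12 and 7 in the wild-type list.

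Islands very rich in control reads made up a larger share next to the ends than inside in the tagged lists, with intervals that overlapped. More than 2 times the autosomal median was reached by 9 of 302 terminal islands in spermatocytes (2.98%, 1.37 to 5.58), beside 12 of 947 inside (1.27%, 0.656 to 2.20) and 0.970% over all autosomes. In round spermatids 16 of 423 reached it (3.78%, 2.18 to 6.07), beside 14 of 1071 inside (1.31%, 0.716 to 2.18) and 1.37% over all autosomes. Of these 16, 15 lay in the outer 2 Mb, and 6 lay on chromosome 18 and 4 on chromosome 17. In the wild-type list only 2 of 558 reached it (0.358%, 0.0434 to 1.29). Without such islands the 3 density ratios were 0.783, 0.963 and 1.21, so the pooled ratios did not rest on them.

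Terminal islands were about as long as inner ones. The medians were 3400 bp (spermatocytes), 3200 bp (round spermatids) and 2600 bp (wild type), beside 3400, 3400 and 2600 bp inside. The difference was 0 (-283 to 200), -200 (-400 to 82.8) and 0 bp (-200 to 200). In the outer 2 Mb the median was 3600, 3000 and 2600 bp.

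The share of islands found in another list was set beside that of inner islands. Of the terminal spermatocyte islands, 52 of 302 overlapped a round spermatid island by at least 1 bp (17.2%, 13.1 to 22.0), beside 18.1% inside and 16.6% over all autosomes. Of the terminal round spermatid islands, 53 of 423 overlapped a spermatocyte island (12.5%, 9.53 to 16.1), beside 16.2% inside and 15.1% over all autosomes, a difference from inside of -3.62 percentage points (-7.28 to 0.446). Of the terminal wild-type islands, 39 of 558 overlapped either tagged list (6.99%, 5.02 to 9.43), beside 7.36% inside and 10.3% over all autosomes. The last interval lay below the share over all autosomes, and the inner stretch, with an interval of 5.92% to 9.02%, did too. So most terminal islands were called in a single list, as were most islands over all autosomes, and this is not a result about the ends. Sharing at single chromosome ends is not given here.

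In stretches called in both tagged lists, the folds lay close to each other. Such stretches passed the caller's threshold in both lists, so those enriched in 1 list only were left out. Overlapping islands formed 52 terminal regions, with median folds of 1.53 (spermatocytes) and 1.46 (round spermatids). The fold of round spermatids divided by that of spermatocytes had a median of 0.947 and ran from 0.703 to 1.38, with 20 regions above 1. None of the 52 changed by 2-fold, beside 0.205% of 2437 autosomal regions that were at least 2-fold higher in round spermatids and 0.369% that were at least 2-fold higher in spermatocytes. Read against these shares, the count of 0 is not a result about the ends. Every counting interval of the 52 ratios included 1. Over all autosomes the interval lay above 1 in 43 and below 1 in 84 of 2437 regions, so this too is not a result about the ends.

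The ratio was lowest in the region chr12:119836201-119840200, with folds of 1.85 (spermatocytes) and 1.30 (round spermatids, ratio 0.703, 0.471 to 1.05). The next lowest were chr18:87792801-87796400 with a ratio of 0.743 and chr8:129933401-129935600 with 0.749. The highest was chr17:93651201-93656600, with folds of 1.62 and 2.24 (ratio 1.38, 0.862 to 2.20), followed by chr2:181513001-181516400 with 1.37 and chr18:90631801-90634200 with 1.33. These are the extremes of 52 ratios, and the 2 folds of a region come from islands that can differ in place and length.

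One terminal stretch lay in islands of all 3 lists, the 2000 bp of chr18:89414601-89416600, 1355431 bp from the end of the chromosome. The spermatocyte island there had 162 ChIP and 108 control reads and a fold of 1.76. The round spermatid island had 116 and 91 reads and a fold of 1.35, and the wild-type island 106 and 69 reads and a fold of 1.55. Control reads per kb were 19.3, 25.3 and 24.6, between the 5th and the 95th percentile of the terminal islands of each list. It lies on the chromosome end that was the richest in tagged islands and among the poorest in wild-type islands. The number of such stretches elsewhere is not given here, so it is unknown whether a single one is few or many.

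The most enriched terminal islands with at least 50 ChIP reads were each called in 1 list only. Most terminal islands were, so this is not a result about high folds. Bases were shared with a round spermatid island by 17.2% of terminal spermatocyte islands, and with a spermatocyte island by 12.5% of round spermatid ones. For native TH2B, 6.99% shared bases with tagged islands. In spermatocytes chr13:118873401-118875800 had a fold of 3.33 (2.11 to 5.43, from 74 ChIP and 26 control reads). It was followed by chr19:57770601-57774400 with 2.63 (1.83 to 3.82) and chr12:119294601-119298600 with 2.57 (1.83 to 3.64). In round spermatids the first was chr13:118976001-118976800 with a fold of 3.64 (2.06 to 6.81, 55 and 16 reads). This 800 bp island lies on the same chromosome end as the first spermatocyte island and shares no base with it. Next came chr14:125066001-125067800 with 2.89 (1.86 to 4.58) and chr3:158185601-158187400 with 2.76 (1.79 to 4.35). For native TH2B the first was chr16:95597201-95597800, 600 bp long, with a fold of 4.96 (2.57 to 10.5, 54 and 11 reads), then chr19:58851201-58852600 with 3.30 (2.04 to 5.51) and chr12:117297601-117299200 with 3.03 (1.99 to 4.75). These are the extremes of each list, and their intervals are wide.

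The longest terminal islands were weakly enriched. In spermatocytes they were chr3:158119201-158128800 of 9600 bp with a fold of 1.49, chr18:88958401-88967200 of 8800 bp with 1.26 and chr8:129977801-129985400 of 7600 bp with 1.26. The first 2 overlapped round spermatid islands. In round spermatids they were chr1:196351601-196362600 of 11000 bp with 1.28, and chr18:86857201-86866600 and chr17:91813201-91822600 of 9400 bp each with 1.21 and 1.40. In wild-type germ cells chr19:61257401-61269000 of 11600 bp had a fold of 1.22 and lay 73.4 kb from the end of the chromosome. It was followed by chr19:59546401-59554000 of 7600 bp with 1.30 and chr7:151348201-151355400 of 7200 bp with 1.21. Both chromosome 19 islands overlapped a round spermatid island.

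The islands richest in control reads had low to middling folds. In spermatocytes chr17:92697601-92700800 had 1744 control and 1618 ChIP reads, 545 control reads per kb, and a fold of 1.09. The next were chr9:123371001-123372000 with 215 control reads per kb and a fold of 1.40, and chr19:60161001-60161200 with 160 and 1.57. In round spermatids they were chr18:90283201-90284600 with 143 control reads per kb and a fold of 1.28, chr18:89540601-89541600 with 130 and 1.26, and chr17:94044401-94045200 with 124 and 1.42. In the wild-type list chr19:61275601-61275800 had 235 control reads per kb and a fold of 1.40, chr16:98244201-98245200 had 70.0 and 1.56, and the long island at the end of chromosome 19 named above had 56.4. The last 3 all lay within 74.0 kb of a chromosome end.

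Islands reached almost to the end of the assembled sequence. For native TH2B the island chr17:95270601-95272600, with 109 ChIP and 81 control reads and a fold of 1.36, ended 51 bp before the end of mm9 chromosome 17. The round spermatid island nearest an end was chr18:90769601-90771000, with 68 and 52 reads and a fold of 1.39, which ended 1031 bp before it. In spermatocytes it was chr17:95256001-95260800, with 195 and 180 reads and a fold of 1.27, at 11851 bp. The same stretch was called in round spermatids, where an island ended at the same base with a fold of 1.51.

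The last 100 kb of the autosomes held 14 spermatocyte islands on 9 chromosomes, 20 round spermatid islands on 12 and 18 wild-type islands on 9. All 3 lists had an island there on chromosomes 2, 16, 17 and 19. Folds ran from 1.27 to 2.45 in spermatocytes, from 1.14 to 2.15 in round spermatids and from 1.22 to 2.88 in the wild-type list, with medians of 1.42, 1.39 and 1.57. Median input density was 24.0, 31.0 and 35.6 reads per kb, beside 22.9, 25.7 and 33.8 in all terminal islands. The distance from the chromosome end to the nearest island had a median over autosomes of 109 kb in spermatocytes, 41.8 kb in round spermatids and 106 kb in the wild-type list.

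The islands on either side of the limit of 4 Mb are given as a description. The last spermatocyte island inside it was chr12:117268801-117271800, 3985730 bp from the end, with a fold of 1.43, and the first outside was chr18:86744801-86746400 at 4025631 bp with 2.29. In round spermatids they were chr13:116307601-116312400 at 3971912 bp with 1.61 and chr2:177745801-177748000 at 4000087 bp with 1.77. In wild-type germ cells they were chr17:91278401-91281400 at 3991251 bp with 1.59 and chr9:120065801-120068400 at 4007772 bp with 1.42.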

How the data were processed

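Per the submitters' processing notes, islands were called with SICER on mm9. The list names give a 200 bp window and a 600 bp gap. Aligner, versions and read filters: not given in the sources used here. The lists have 8 columns and no header. Each island has, as deposited, counts of ChIP and control reads, a p-value and FDR (all FDR below 0.01), and a fold, which equals the ChIP to control ratio over 1 constant per list (0.854 in spermatocytes, 0.944 in round spermatids, 0.989 in wild-type germ cells). The input of the same cells was assumed as control. Starts count from 0; ends were made inclusive in all lists, and positions printed here start at 1. Depth was known only inside islands.

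Chromosome lengths came from GenomeInfoDb 1.38.1. They include assembly gaps. Terminal islands end within 4 Mb of the chromosome end, and inner islands end 10 to 20 Mb from it. Density ratios have exact intervals conditional on the total count, shares exact Clopper-Pearson intervals, medians order-statistic intervals, and differences intervals combined from both (Wilson intervals for shares). Fold ratios of single regions have normal intervals of the log ratio of reads. No test was made, with 1 library per group. Analyses used Python 3.11.15, numpy 2.4.6, pandas 2.3.3, scipy 1.17.1 and matplotlib 3.10.9, and were tested on simulated islands with planted density ratios and overlaps. The simulated islands were scattered at random, so that check does not cover the intervals of islands that lie in clusters.

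Islands were named by rule: per list the 3 highest folds among islands of 50 or more ChIP reads, the 3 longest, the 3 richest in control reads and the nearest to an end, stretches in all 3 lists, and the 3 highest and 3 lowest ratios of the tagged lists. Chromosomes were named by the 3 highest and 3 lowest terminal densities and by ratios on one side of 1 in all lists. The stretches and rules were chosen with earlier results of these data known. Alternatives were other stretch sizes, another inner stretch, the rest of the autosome, covered DNA, a stricter FDR, a fold of at least 2, usual input density, placement by the island's middle and leaving out autosomes. A genome and gene annotation of mm9 were not used here, so no gene is named.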

Additional observations from a re-analysis of the deposited data

How the results depend on the processing

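Among 435 alternatives, 17 took a value outside its counting interval, none of them among the 342 that left out 1 autosome. No difference whose interval excluded no change turned its direction. The density ratio of the last 4 Mb moved most. In spermatocytes (0.797) it was 0.993 for the last 2 Mb, 0.993 for the last 1 Mb, 0.602 for 2 to 4 Mb, 0.634 against the rest of the autosome and 0.674 for folds of 2 or more. In round spermatids (0.987) it was 1.34, 1.19, 0.640, 0.813 and 0.730 under those 5 settings. In wild-type germ cells (1.21) it was 1.36 for the last 2 Mb, 1.05 for 2 to 4 Mb, 1.34 against the rest of the autosome and 1.61 for folds of 2 or more. At an FDR of 0.0001 the wild-type median fold differed by 0.022, the round spermatid median length by 200 bp, and the wild-type share with a fold of at least 2 by 4.92 percentage points. The cause was not tested. At that FDR the wild-type density ratio was 1.16 (0.985 to 1.36), and at a fold of 2 or more that of spermatocytes had an interval of 0.411 to 1.07, so both included 1. The settings for 2 to 4 Mb, those for the share with a fold of 2 or more, and the ratios of outer to inner 2 Mb with 1 autosome left out were chosen after seeing the data. No paired analysis was possible because each group had 1 library. Island counts at single ends are small, so their intervals are wide; whether depth limits them was not tested.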
